A study of Rattus norvegicus with 74 samples.

Results

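The miR-17-92 cluster is a group of 6 miRNA hairpins that lie side by side on rat chromosome 15. Its strands were found on the array by name, as every probe set for miR-17, miR-18a, miR-19a, miR-19b, miR-20a or miR-92a with any arm or copy suffix that was detected on at least 1 array. Of the 677 miRNAs on the array, 15 carry such a name, and 7 of these 15 were detected, among 311 miRNAs detected on any array. The detected strands are the 6 leading strands rno-miR-17-5p, rno-miR-18a-5p, rno-miR-19a-3p, rno-miR-19b-3p, rno-miR-20a-5p and rno-miR-92a-3p, and the weak opposite arm rno-miR-20a-3p. The other 8 names, all of them passenger arms, were not detected on any of the 74 arrays.

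Whole kidneys of untreated F344 rats of both sexes were studied at 8 ages: the youngest were 2, 5, 6 and 8 weeks old and the older ones 15, 21, 78 or 104 weeks. There were 4 or 5 animals in each of the 16 groups of age and sex, and each was hybridized to its own single-colour array. No group carried an allele or received an agent. The arrays detected between 190 and 264 miRNAs. Intensities were expressed relative to the 75th percentile of their array, so that a normalized intensity of 1 equals that percentile, and values under a common floor of 0.0171 were raised to it. The 4 youngest ages shared 5 slides and the 4 oldest the remaining 5, with 1 exception, a 15-week female among the young. Whole kidney is a mixture, so fewer cells of a type and less miRNA per cell cannot be told apart in these levels. MiR-192-5p, miR-194-5p and miR-204-5p of the renal tubule were detected on all 74 arrays. They are among 166 miRNAs detected on every array, as is miR-133b-3p of striated muscle, so this does not test the kidney label.

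The cluster is transcribed as 1 long RNA, from which the hairpins are cut and matured separately. Its miRNAs are known for promoting cell proliferation and survival, the locus is driven by MYC and E2F factors, and it is amplified in some lymphomas. In the developing kidney, it is needed in nephron progenitors for a normal number of nephrons. A miRNA recognizes its targets mainly through its seed, which is bases 2 to 8 of the mature strand.

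The 6 hairpins span chr15:98587848-98588632 on the plus strand of the GRCr8 assembly, in the order miR-17, miR-18a, miR-19a, miR-20a, miR-19b and miR-92a. The leading strands are shown because their seeds divide them into 4 families, along which the results below are ordered. Sequences and positions are those of RefSeq, which held all 15 names. Each is written 5′ to 3′ with the seed in capitals.
rno-miR-17-5p: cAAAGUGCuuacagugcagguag
rno-miR-20a-5p: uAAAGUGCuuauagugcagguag
rno-miR-18a-5p: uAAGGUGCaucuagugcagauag
rno-miR-19a-3p: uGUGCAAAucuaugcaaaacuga
rno-miR-19b-3p: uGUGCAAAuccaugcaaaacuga
rno-miR-92a-3p: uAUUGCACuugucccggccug
Counted from the 5′ end, miR-17-5p and miR-20a-5p differ by C1U and C12U, and miR-19a-3p and miR-19b-3p by U11C alone. Of the mature strands, 3 have a second, identical copy in the miR-106a-363 cluster at chrX:137342777-137343647 on the minus strand. The copy of miR-17-5p lies in the hairpin Mir106a at chrX:137343615-137343637, that of miR-19b-3p at chrX:137343070-137343092 and that of miR-92a-3p at chrX:137342945-137342965. The array cannot tell these copies from those on chromosome 15, whereas the table lists miR-18a-5p, miR-19a-3p and miR-20a-5p on chromosome 15 alone.

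Every leading strand had a lower mean at 5 weeks than at 2 weeks in both sexes. A fall was called when the adjusted p of limma, over all 311 miRNAs, was under 0.05 and the fold was at least 1.5. By this rule, 3 of the 7 detected strands fell from 2 to 5 weeks in females (miR-17-5p, miR-18a-5p and miR-20a-5p) and 2 in males (miR-17-5p and miR-18a-5p), while none rose. The count in females went from 1 to 5 when 1 array was left out (1 without 2-week replicate 4, 5 without 2-week replicate 3) and was 0 with the 75th percentile taken over all miRNAs, and background correction with normexp gave 0 in both sexes. Among all 311 miRNAs, 11.9% fell in females and 12.5% in males. From 2 to 8 weeks, 5 strands fell in females and 4 in males, beside 12.5% and 14.8% of all miRNAs. The median change of the 6 leading strands from 2 to 5 weeks was -0.60 on the log2 scale in females and -0.56 in males, and that of all 311 miRNAs was 0 in both. Only 166 of the 311 were detected on every array. A miRNA at the floor at both ages has a change of 0 and cannot be called, so the floor contributes to this median and to the shares of all miRNAs. An age effect over all 8 ages was called for 4 strands in each sex, against 36.7% of all miRNAs in females and 45.3% in males. In females these were miR-17-5p, miR-18a-5p, miR-19b-3p and miR-20a-5p, and in males miR-92a-3p took the place of miR-19b-3p.

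**Figure D1:**
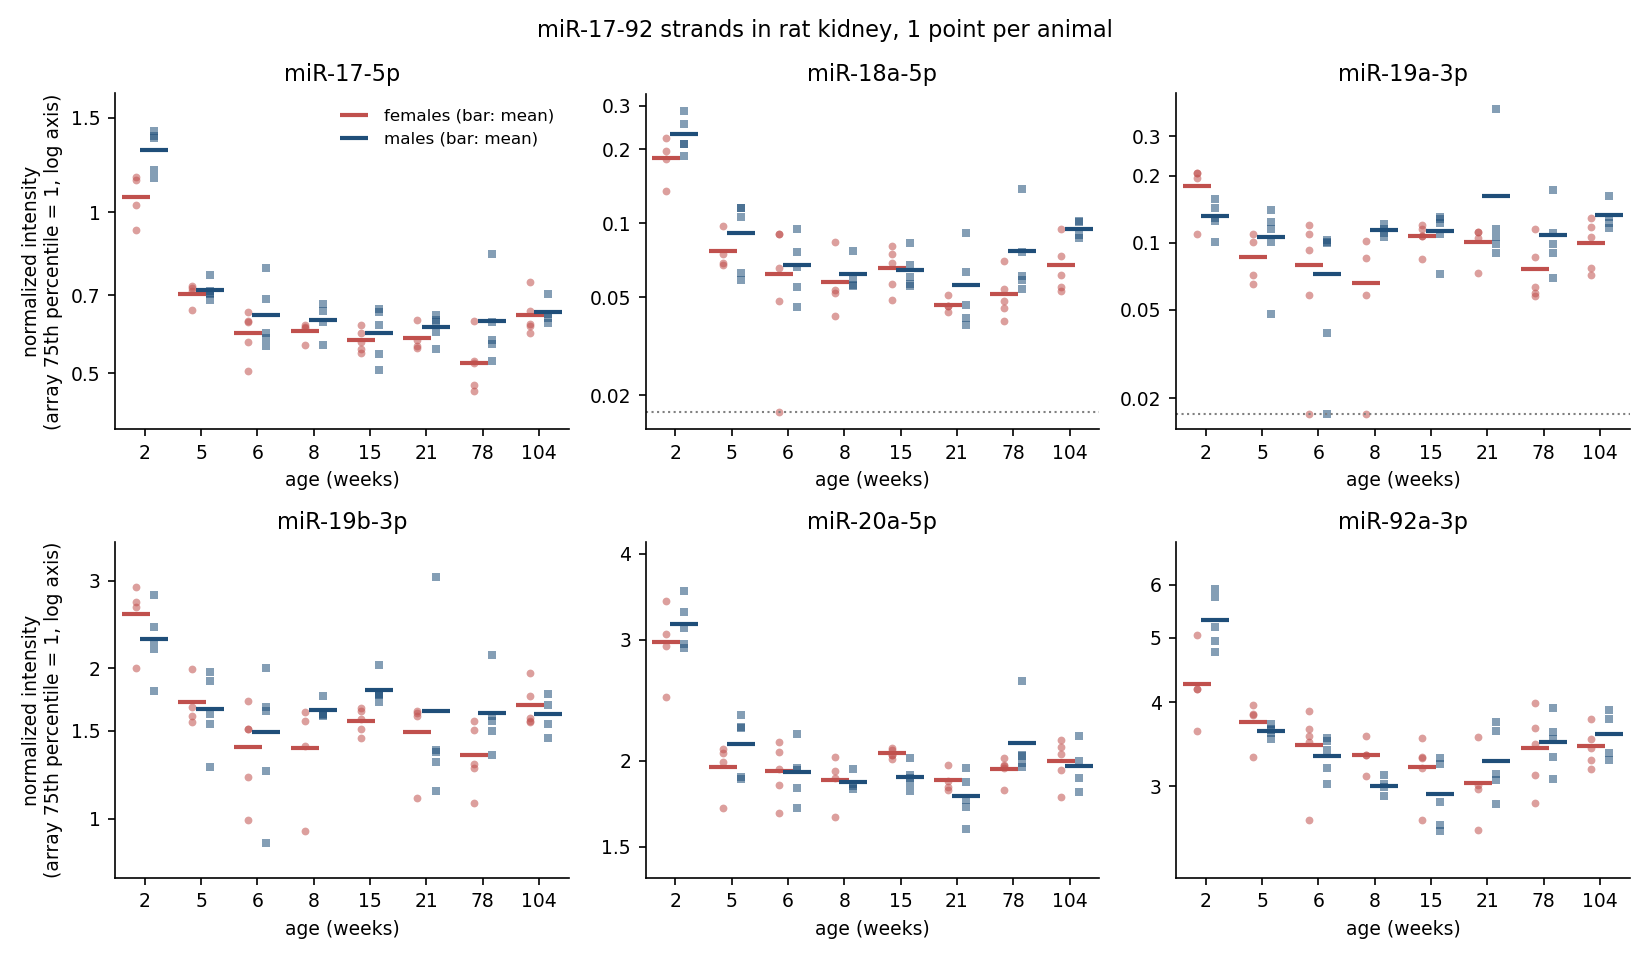
Normalized intensity of the 6 leading strands (log axis, 1 equals the array's 75th percentile) against age in weeks, with 1 point for each animal, circles for females, squares for males and a bar at each group mean. Each strand has its own axis, and the dotted line is the floor of 0.0171. All 2-week animals lie above all older animals of their sex for miR-17-5p, miR-18a-5p and miR-20a-5p, and the groups overlap for miR-19a-3p. How many of all detected miRNAs separate in this way was not counted.

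MiR-17-5p, which gives the cluster its name and is known to repress cell cycle inhibitors, had normalized intensities of 0.927, 1.15, 1.16 and 1.03 in the 4 females of 2 weeks and of 0.722, 0.729, 0.655 and 0.713 in those of 5 weeks. The 5 males had 1.20, 1.41, 1.37, 1.16 and 1.39 at 2 weeks and 0.706, 0.712, 0.703, 0.687 and 0.764 at 5 weeks. The ages did not overlap in either sex, and at 5 weeks the means of the sexes, 0.705 ± 0.0335 (SD, n = 4) and 0.714 ± 0.0294 (SD, n = 5), lay within 1 SD of each other. In females miR-17-5p fell by 0.59, on the log2 scale that all changes below use (standard error 0.0972, adjusted p = 9.98e-07 from limma) and by 0.87 in males (standard error 0.0869, adjusted p = 4.28e-13). The fold in females, 1.51, was just past the threshold. From 6 weeks on its lowest group mean was 0.523 (78-week females) and its highest 0.651 (104-week males), and none of the 65 animals older than 2 weeks reached the lowest 2-week animal of its sex.

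MiR-20a-5p has the same seed as miR-17-5p and shares much of its target range. Its levels in females were 2.48, 3.41, 2.94 and 3.06 at 2 weeks and 2.06, 1.99, 2.08 and 1.71 at 5 weeks. In males they were 3.12, 3.54, 3.29, 2.96 and 2.92 at 2 weeks and 2.33, 2.23, 2.24, 1.89 and 1.88 at 5 weeks. Again the ages did not overlap in either sex. The log2 change was -0.60 in females (standard error 0.0826, adjusted p = 1.97e-08) and -0.58 in males (standard error 0.0739, adjusted p = 7.35e-10). These sizes are nearly equal, but the fold was just past 1.5 in females and just under it in males. By 8 weeks miR-20a-5p had fallen by 0.66 in females and by 0.76 in males, both of which were called.

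The opposite arm of the same hairpin, miR-20a-3p, was detected on 49 arrays and lay at the floor on 61 of 74, since weak detected signals are raised to the floor too. It was above the floor in 8 of 9 animals of 2 weeks and in 5 of 65 older ones. At 2 weeks its levels were 0.0185, 0.0189, 0.0171 and 0.0174 in females and 0.0197, 0.0283, 0.0233, 0.0246 and 0.0201 in males, so all males lay above all females. There the log2 difference, males minus females, was 0.36 (standard error 0.0420, adjusted p = 1.35e-09), which is under 1.5-fold. Because nearly all later values are equal by construction, the spread behind this test and every other test of miR-20a-3p is too small.

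MiR-18a-5p, the cluster's only detected strand with this seed, showed the deepest fall of the 6 in both sexes. It is known to act on the TGF-beta pathway. Females had 0.136, 0.222, 0.196 and 0.183 at 2 weeks and 0.0749, 0.0691, 0.0973 and 0.0673 at 5 weeks, and males 0.210, 0.286, 0.254, 0.188 and 0.210 at 2 weeks and 0.116, 0.115, 0.106, 0.0628 and 0.0587 at 5 weeks. The change was -1.25 in females (standard error 0.302, adjusted p = 0.000686), or 2.38-fold, and -1.37 in males (standard error 0.270, adjusted p = 2.03e-05). At 8 weeks it was -1.70 and -1.89. All 9 animals of 2 weeks lay above all 65 older ones of their sex. These are weak signals: the median intensity of miR-18a-5p was 10.2 scanner units, the scanner's own error estimate was 15.3% of the signal at the median, and 1 of the 74 arrays, 6-week female replicate 4, did not detect it.

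MiR-19a-3p and miR-19b-3p are known as the main oncogenic part of the cluster. MiR-19b-3p had 2.00, 2.72, 2.91 and 2.66 in 2-week females and 1.67, 1.61, 1.57 and 1.99 in 5-week females. Males had 2.27, 2.80, 2.42, 1.80 and 2.18 at 2 weeks and 1.97, 1.62, 1.89, 1.55 and 1.27 at 5 weeks. Female groups of the 2 ages touched without overlapping, and 2 of the 5 males of 5 weeks lay above the lowest male of 2 weeks. Its change was -0.58 in females (standard error 0.196, adjusted p = 0.0176) and -0.47 in males (standard error 0.175, adjusted p = 0.0231), both under 1.5-fold. From 2 to 8 weeks miR-19b-3p fell by 0.91 in females and was called, and changed by -0.46 in males, which was not.

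MiR-19a-3p was the least steady strand. Its 2-week levels were 0.109, 0.206, 0.207 and 0.196 in females and 0.144, 0.129, 0.158, 0.101 and 0.125 in males. At 5 weeks they were 0.0650, 0.101, 0.109 and 0.0717 in females and 0.141, 0.115, 0.124, 0.101 and 0.0477 in males, so the male groups overlapped almost fully. The change was -1.04 in females (standard error 0.452, adjusted p = 0.0809) and -0.39 in males (standard error 0.404, adjusted p = 0.513), and neither passed the test. In females the change to 8 weeks, -1.68, was called (standard error 0.452, adjusted p = 0.00205), with 1 of the 4 animals of 8 weeks, replicate 2, undetected and at the floor. Undetected values at the floor also occurred in 6-week female replicate 4 and 6-week male replicate 1. These arrays and that of 8-week female replicate 2 shared a slide and had weak signals. Their 75th percentiles were 81.9, 94.1 and 91.8 scanner units, against a median of 156 over all arrays.

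MiR-92a-3p, known from blood vessel growth, had levels of 5.04, 4.19, 3.62 and 4.19 in 2-week females and of 3.96, 3.32, 3.84 and 3.83 in 5-week females, and these ranges overlapped. Males had 5.90, 4.95, 5.19, 5.75 and 4.76 at 2 weeks and 3.52, 3.65, 3.61, 3.64 and 3.71 at 5 weeks, which lay well apart. The change was -0.18 in females (standard error 0.101, adjusted p = 0.197) and -0.55 in males (standard error 0.0906, adjusted p = 7.16e-07). The male change had a fold under 1.5 and was called only at 8 weeks, when miR-92a-3p had fallen by 0.82. In females the change to 8 weeks was -0.34 (adjusted p = 0.00520), a fold of 1.27.

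**Figure D2:**
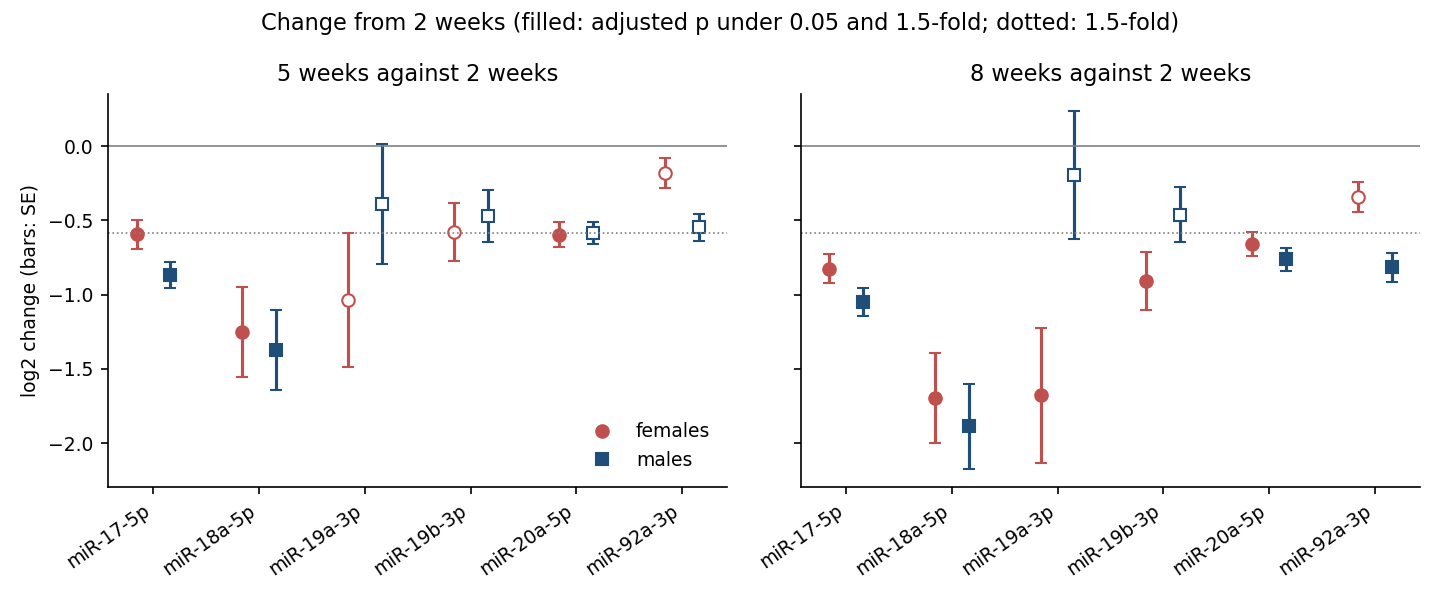
Log2 change of each leading strand from 2 weeks to 5 weeks (left) and to 8 weeks (right), with the standard error of limma, for females (circles) and males (squares). Filled symbols passed both thresholds and the dotted line is a 1.5-fold fall. MiR-18a-5p lies lowest at 5 weeks in both sexes (-1.25 and -1.37), and every point is below 0.

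Slides held animals of both ages, so the change could be read within a slide. In females 3 slides and in males 5 held both 2-week and 5-week kidneys. All 6 strands were lower at 5 weeks on all 3 slides in females. In males miR-17-5p, miR-18a-5p, miR-19b-3p, miR-20a-5p and miR-92a-3p were lower on all 5 slides, and miR-19a-3p on 4. The same count was not made over all miRNAs, so how unusual it is remains unknown. For miR-18a-5p the change within a slide ranged from -1.51 to -0.86 in females and from -1.84 to -0.86 in males, and for miR-17-5p from -0.68 to -0.36 and from -0.99 to -0.76. With slide as a fixed block, miR-18a-5p changed by -1.20 in females and by -1.37 in males, and the same strands were called. Each leading strand was measured by 2 probes, and for each of the 6 both probes had a lower mean at 5 weeks in both sexes.

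The changes of the 6 strands were also compared with each other, through the log2 ratio of 2 strands within each array. Because the signals of miR-17-5p, miR-19b-3p and miR-92a-3p may include their copies on the X chromosome, a ratio with any of them need not compare products of 1 transcript, and only the 3 pairs among miR-18a-5p, miR-19a-3p and miR-20a-5p are free of this. Such a ratio does not depend on the percentile by which an array was divided. The labels 2 weeks and 5 weeks were exchanged within each sex in all 17640 possible ways, and the two-sided exact permutation p was adjusted over the 15 pairs of strands. Unequal change was found for 6 of the 15 pairs: all 5 pairs with miR-18a-5p, and miR-17-5p with miR-92a-3p. For the pairs that did not pass, equal change was not shown.

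MiR-18a-5p lost 0.72 more on the log2 scale than miR-20a-5p (0.65 in females and 0.79 in males, adjusted exact permutation p = 0.000850), and the ratios at the 2 ages did not overlap among the 18 animals. The ratio of miR-18a-5p to miR-19b-3p changed by -0.79 (adjusted exact permutation p = 0.000850) and that to miR-92a-3p by -0.95 (adjusted exact permutation p = 0.00113). Against miR-19a-3p the value was -0.60, made up of -0.21 in females and -0.98 in males (adjusted exact permutation p = 0.00544). Against miR-17-5p, the change was -0.58, since the ratio of miR-17-5p to miR-18a-5p rose by that amount (adjusted exact permutation p = 0.00544). MiR-17-5p in turn lost 0.37 more than miR-92a-3p, with -0.41 in females and -0.32 in males (adjusted exact permutation p = 0.00935). After background correction with normexp, 1 of the 15 pairs passed. This alternative compresses weak signals such as those of miR-18a-5p, but stronger strands moved too. The change of miR-20a-5p went from -0.60 to -0.26 in females and from -0.58 to -0.45 in males. Why the other pairs no longer passed was not tested.

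**Figure D3:**
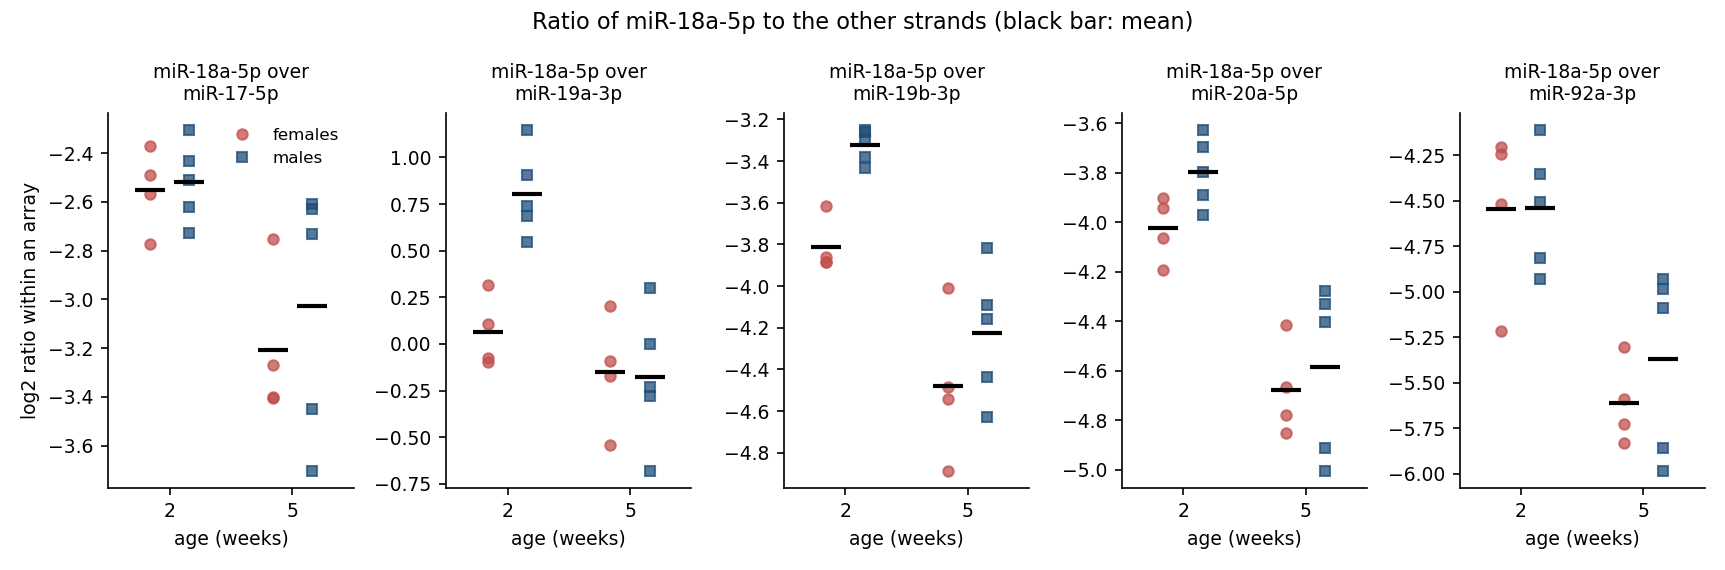
Log2 ratio of miR-18a-5p to each of the other leading strands within an array, at 2 and 5 weeks, with 1 point for each animal (circles females, squares males) and a black bar at each mean. Levels of different probes cannot be compared, so that only the shift between the ages can be read. All 5 ratios are lower on average at 5 weeks, and the 2 ages do not overlap for the ratio to miR-20a-5p.

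None of the 84 changes of the 7 strands between neighbouring later ages was called by limma, while 2.33% of all such changes of the 311 miRNAs were. Those of miR-20a-3p could hardly be called, since it was above the floor in 5 of 65 older animals. Other miRNAs at the floor enter the share of all miRNAs in the same way. An unadjusted p under 0.05 was reached by 5 of the 84, against 17.2% over all miRNAs, and the unmoderated test that the study's methods name, here called the methods' test, also gave 0. Without the fold threshold 2 changes passed, against 5.25% over all miRNAs: miR-17-5p rose by 0.30 from 78 to 104 weeks in females (adjusted p = 0.0257, 1.23-fold), and miR-20a-5p rose by 0.26 from 21 to 78 weeks in males (adjusted p = 0.00654, 1.19-fold). The step from 8 to 15 weeks falls together with the change of slides.

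The order of the 8 group means was headed by 2 weeks for all strands in both sexes, except for miR-19a-3p in males. There 21 weeks came first, with a mean of 0.162 ± 0.132 (SD, n = 5) that rests on replicate 2 at 0.398, while the others were at 0.0902 to 0.115. Below the first place neighbours were hardly separated: of the 7 gaps between neighbouring ages, 5 to 7 were smaller than the larger SD of the pair, for every strand and sex. The second place was held by 5 weeks for miR-17-5p and miR-92a-3p in both sexes. For miR-18a-5p it was held by 5 weeks in females (0.0771 ± 0.0138, SD, n = 4) and by 104 weeks in males (0.0949 ± 0.00768, SD, n = 4).

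The mean of miR-18a-5p was higher in 104-week than in 21-week males, but this did not hold in all settings. Its levels were 0.0631, 0.0915, 0.0463, 0.0410 and 0.0387 at 21 weeks and 0.0871, 0.101, 0.0896 and 0.102 at 104 weeks, and only replicate 2 at 21 weeks overlapped with the oldest males. It was the single strand called from 21 to 104 weeks in males, with a rise of 0.83 (standard error 0.286, adjusted p = 0.0195, 1.78-fold). Calling 1 of 7 strands is about the share among all miRNAs, of which 14.8% were called in either direction. Without the fold threshold 1 of the 7 passed as well, against 33.4% over all miRNAs. This call was lost without 104-week replicate 6, without 21-week replicate 4 and without 21-week replicate 5. It was also lost under the methods' test, normexp and both other ways of taking the 75th percentile, and with outlier spots left out. In females no strand was called between these ages by limma, by the methods' test or at an unadjusted p under 0.05, against 2.89% of all miRNAs called, and miR-18a-5p changed by 0.50 (standard error 0.286, adjusted p = 0.550). The difference between the sexes in this change was not tested.

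Markers of other cells moved over the same interval in males. All 4 leukocyte miRNAs measured (miR-150-5p, miR-223-3p and both arms of miR-142) rose from 21 to 104 weeks, although miR-142-5p was detected on 10 arrays only. Their summed level was 3.08 to 3.70 at 21 weeks and 5.56 to 7.67 at 104 weeks. All 3 renal tubule miRNAs fell, with sums of 23.8 to 26.9 at 21 weeks and of 13.3 to 15.98 at 104 weeks. Of the 2 erythroid miRNAs, miR-451-5p rose and miR-144-3p was detected on 5 arrays only. Of striated muscle, miR-206-3p fell by 1.09 (adjusted p = 1.13e-11 from limma), although it was detected on 17 arrays only, and miR-133b-3p was not called. MiR-126a-3p of endothelium, miR-143-3p and miR-145-5p of smooth muscle and miR-122-5p of liver were not called. In females miR-142-3p and miR-451-5p rose over the same interval, by 0.79 and by 0.88, and no other miRNA of these lists was called. There miR-223-3p passed only without the fold threshold, with 0.41 (adjusted p = 0.0110 from limma). The part of these in the level of miR-18a-5p was not tested.

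The same lists were read from 2 to 5 weeks. There miR-142-3p and miR-223-3p and the erythroid miR-451-5p rose in both sexes, miR-194-5p of the tubule rose in both and miR-192-5p in males, while miR-204-5p of the tubule changed by -0.06 in females and by -0.19 in males and was not called. The endothelial and smooth muscle miRNAs were not called, nor was miR-133b-3p or miR-206-3p of striated muscle. Without the fold threshold, the endothelial miR-126a-3p passed with -0.35 in females and -0.20 in males (adjusted p = 0.000403 and 0.0237 from limma). In females miR-192-5p passed in the same way, with 0.48 (adjusted p = 7.96e-06 from limma). The liver miRNA miR-122-5p lay between 0.0774 and 0.107 in 2-week females and between 0.397 and 0.611 in 2-week males, apart from male replicate 1 at 23.6. It was called lower at 5 weeks in males, where replicate 2 at 3.91 stood apart and the others were at 0.0259 to 0.429. Without 2-week male replicate 1, miR-17-5p changed by -0.90 and miR-18a-5p by -1.40 in males, and 3 strands were called instead of 2, since miR-20a-5p passed the fold threshold.

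None of 56 differences of the 7 strands between males and females at single ages was called by limma or by the methods' test, against 3.34% of all miRNAs at all ages, and 5 of the 56 had an unadjusted p under 0.05, against 18.3% over all miRNAs. After 2 weeks miR-20a-3p could hardly be called here either, since nearly all its values were at the floor. The widest difference, males minus females, was that of miR-19a-3p at 8 weeks, with 1.06 (standard error 0.452, adjusted p = 0.241, 2.09-fold). It was called when no filter on detection was set, and 1 of the 4 females there was at the floor. MiR-18a-5p was 1.43-fold higher in males at 78 and at 104 weeks (adjusted p = 0.171 and 0.220). Without the fold threshold 4 differences passed, against 9% over all miRNAs, all of them higher in males. At 2 weeks these were miR-17-5p (0.29 on the log2 scale, adjusted p = 0.0245), miR-92a-3p (0.32, adjusted p = 0.0179) and miR-20a-3p, and at 78 weeks miR-17-5p (0.25, adjusted p = 0.0338). The 2-week ranges of miR-17-5p overlapped narrowly, since the highest female and the lowest male were both at 1.16.

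Age and sex interacted for 1 strand, the near-floor miR-20a-3p (adjusted p = 4.81e-06), where 27.7% of all miRNAs were called. For miR-92a-3p its adjusted p was 0.0817, and for the other 5 leading strands it was 0.442 or more. The change from 2 to 5 weeks differed between the sexes for miR-20a-3p alone, against 4.82% of all miRNAs. The difference, males minus females, was -0.36 for miR-92a-3p (standard error 0.136, adjusted p = 0.130), -0.27 for miR-17-5p (standard error 0.130, adjusted p = 0.333) and 0.01 for miR-20a-5p (standard error 0.111, adjusted p = 1).

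Other kidney miRNAs share the seeds of the cluster, and RefSeq gave a mature sequence for 282 of the 311 detected miRNAs. They are shown here because they come from the paralogous clusters miR-106b-25 and miR-106a-363, whose strands may act on the same targets. The first 3 have the seed of miR-17-5p and the last 2 that of miR-92a-3p.
rno-miR-106b-5p: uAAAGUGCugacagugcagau
rno-miR-20b-5p: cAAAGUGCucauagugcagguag
rno-miR-93-5p: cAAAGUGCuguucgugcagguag
rno-miR-25-3p: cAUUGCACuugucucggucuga
rno-miR-363-3p: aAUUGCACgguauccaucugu
All 5 had lower means at 5 than at 2 weeks in both sexes. MiR-363-3p fell by 1.74 in females and by 1.91 in males, whereas miR-92a-3p, with the same seed and a copy in the same cluster on the X chromosome, changed by -0.18 and -0.55. MiR-106b-5p fell by 0.87 and by 0.80 and miR-20b-5p by 0.76 and by 0.91, while miR-93-5p and miR-25-3p fell in males (by 0.59 and by 0.64) and were not called in females (-0.29 and -0.32). MiR-32-5p also has the seed of miR-92a-3p, but was detected on 1 array. None of the other detected miRNAs with a sequence in RefSeq had the seed of miR-18a-5p or of miR-19.

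**Figure D4:**
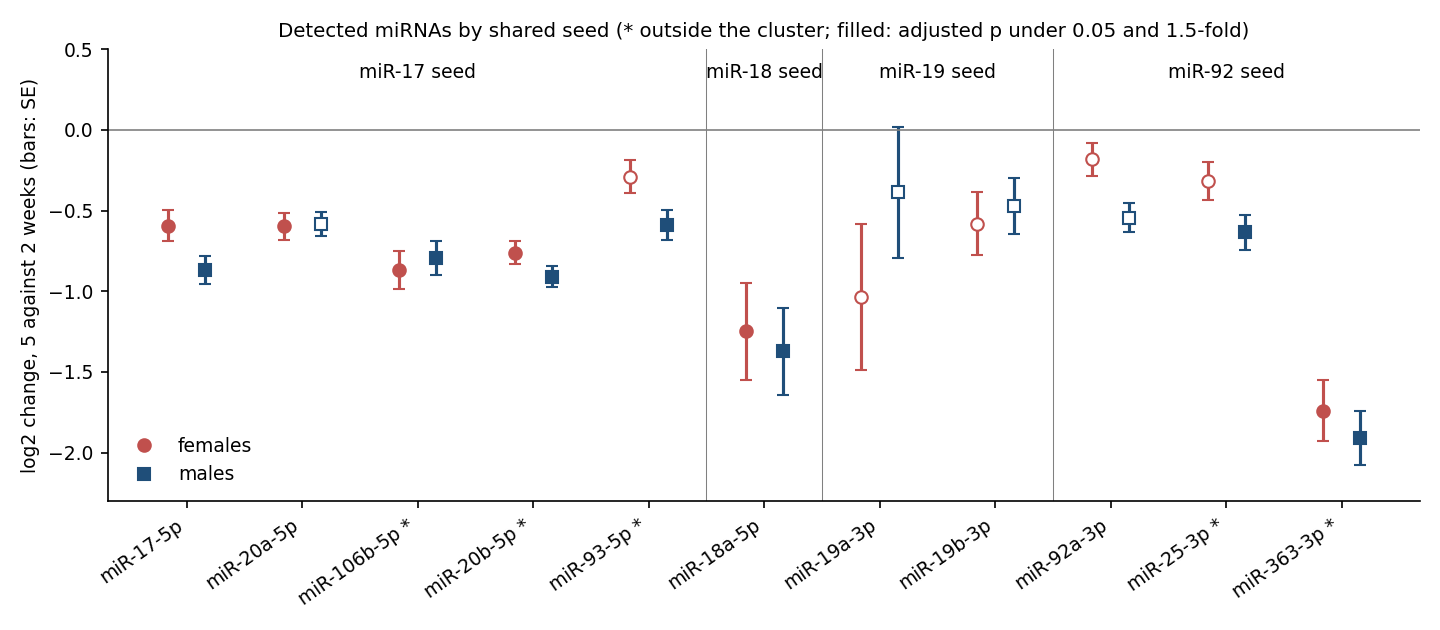
Log2 change from 2 to 5 weeks with the standard error of limma for detected miRNAs grouped by seed, in females (circles) and males (squares). An asterisk marks miRNAs outside the cluster and filled symbols passed both thresholds. In the miR-17 seed group, changes lie between -0.29 and -0.91, and in the miR-92 seed group miR-363-3p (-1.74 and -1.91) lies apart from miR-92a-3p (-0.18 and -0.55).

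Among 221 other miRNAs, each present on 50% of the arrays or more, the 5 whose 16 group means were most like the mean course of the 6 leading strands were miR-542-3p (Pearson r = 0.96), miR-20b-5p (0.96), miR-322-5p (0.92), miR-503-5p (0.91) and miR-106b-5p (0.90). The 16 means share arrays and scaling, and the likeness rests largely on the 2-week groups. Over the 14 groups without them r was 0.75, 0.74, 0.40, 0.46 and 0.30 for the same miRNAs. Within the cluster, each strand was set against the mean of the other 5 in the same way. The value was between 0.80 and 0.94 for 5 strands and 0.57 for miR-19a-3p. These values include the 2-week groups and were not computed without them, so they cannot be set against those over 14 groups.

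Arrays of the same age and sex also differed from each other, and several strands did so together. After each group's mean was removed, miR-19a-3p and miR-19b-3p correlated over the 74 arrays at r = 0.79 (Spearman's rho 0.77), miR-18a-5p and miR-19b-3p at 0.70 (0.71) and miR-18a-5p and miR-20a-5p at 0.71 (0.70). In a permutation test with 100000 exchanges of arrays within their groups, p was 1e-05 for r and for rho of all 3 pairs, the smallest it can give, and 2.5e-05 when adjusted over 15 pairs. Without the 2 arrays farthest out, r was 0.82, 0.69 and 0.68. Within the 36 arrays of 2 to 8 weeks it was 0.79, 0.71 and 0.78, and within the 38 of 15 to 104 weeks 0.85, 0.70 and 0.60. Slides played into these deviations: over all miRNAs, arrays of different groups correlated at 0.17 on average when they shared a slide (238 pairs) and at -0.02 when they did not (2327 pairs). With slide removed as well as group, r of the same 3 pairs was 0.77, 0.65 and 0.62 (adjusted permutation p = 5e-05, 5e-05 and 7.5e-05). The correlations of miR-17-5p with miR-18a-5p, miR-19a-3p and miR-20a-5p, 0.35, 0.35 and 0.34, fell to 0.24, 0.22 and 0.30 and no longer passed (adjusted permutation p = 0.141, 0.126 and 0.110).

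MiR-92a-3p went the other way. It correlated negatively with the other 5 strands, most with miR-19a-3p (r = -0.43, rho -0.44, adjusted permutation p = 0.000956 and 0.000412) and with miR-19b-3p (r = -0.33, rho -0.31, adjusted permutation p = 0.0159 and 0.0173). Without the 2 arrays farthest out these were -0.40 and -0.28, in the younger arrays -0.52 and -0.46 and in the older ones -0.39 and -0.24. With slide removed as well they were -0.40 and -0.34 (adjusted permutation p = 0.00900 and 0.0207). Its correlations with miR-17-5p, miR-18a-5p and miR-20a-5p were between -0.20 and -0.15 and did not pass, and that with miR-17-5p turned to 0.13 with slide removed. For comparison, the median r over all 13695 pairs of the 166 miRNAs detected on every array was 0.10, with quartiles of -0.10 and 0.31. Of the 6 strands miR-92a-3p has the highest share of G and C, with 12 of 21 bases (57.1%), and miR-19a-3p the lowest, with 8 of 23 (34.8%). The 75th percentile of an array ran from 81.2 to 283 scanner units. On the arrays with the smallest percentiles, miR-19a-3p lay below its group mean and miR-92a-3p above it. The deviations were -0.22 and 0.11 in 78-week female replicate 1 (percentile 81.2). They were -1.94 and 0.18 in 6-week female replicate 4 (81.9) and -0.67 and 0.25 in 2-week female replicate 3 (83.2). The part of array signal, base composition, the mixture of cells or probes that bind a near-identical strand in these deviations was not tested.

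**Figure D5:**
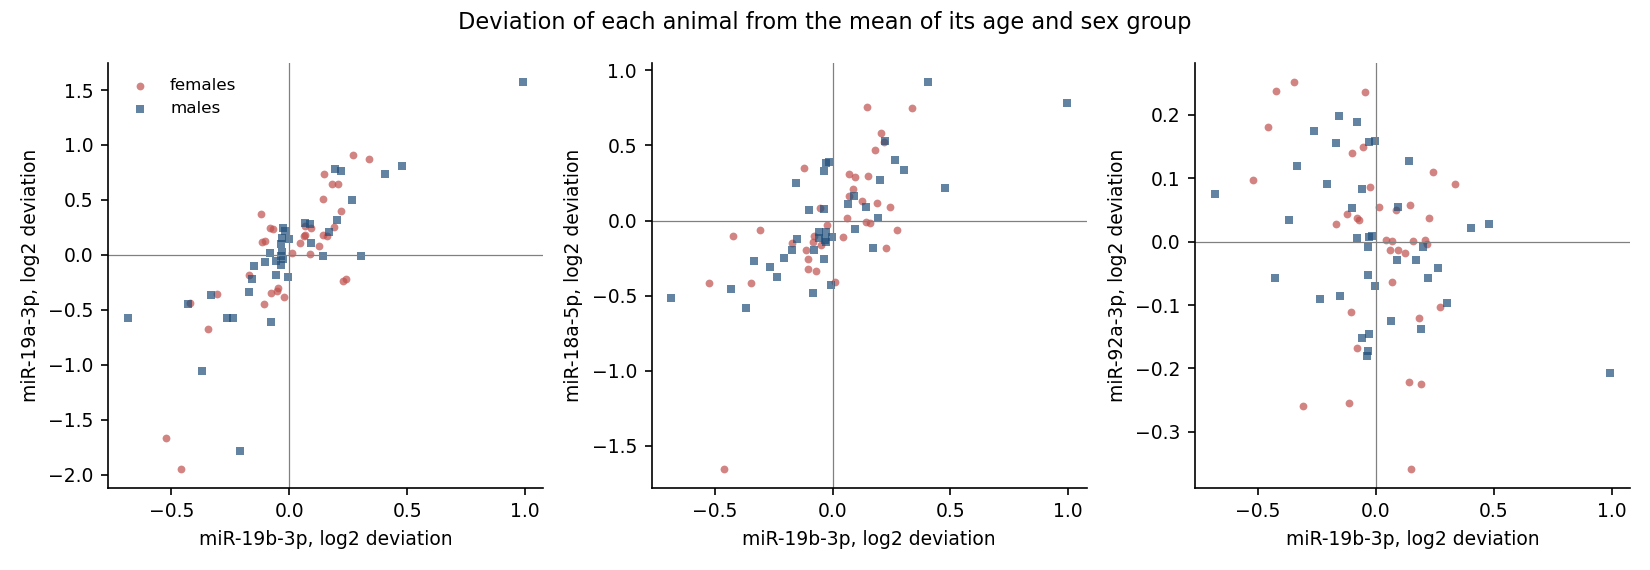
Log2 deviation of each animal from the mean of its own age and sex group, for miR-19a-3p, miR-18a-5p and miR-92a-3p against miR-19b-3p, with 1 point for each of the 74 arrays. The first 2 panels slope upwards (r = 0.79 and 0.70) and the last slopes downwards (r = -0.33). The point at the upper right of the first panel is 21-week male replicate 2.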

How the data were processed

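Members and lists were chosen with earlier results of these data known. The deposited scanner files hold intensities: Agilent Feature Extraction 10.7.3.1, run by the authors, gave each miRNA a background-subtracted total gene signal over 20 spots, not normalized between arrays. The authors' table of normalized values was not used, because most of its columns did not match the scanner file of the sample they name. Ages and sexes here follow the scanner files, and which of these labels are right was not tested. Total gene signals were divided by the 75th percentile of the 311 expressed miRNAs on each array, raised to a floor of 0.0171 (the lowest detected signal, 1.39, over the smallest percentile, 81.2) and log2-transformed. No miRNA spot was saturated.

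Groups were compared with limma 3.58.1 in R 4.3.3 (1 mean for each of 16 groups, 58 residual degrees of freedom), and age effects with moderated F tests within each sex that also needed 1 pair of ages 1.5-fold apart. P-values were adjusted by Benjamini-Hochberg over 311 miRNAs, and interactions needed no fold. The script was tested on simulated data. Ratios of strands were tested by exact permutation. All members, the seed-sharing paralogues, marker lists and the 5 miRNAs most alike in course could be named. Alternatives concerned floor, scaling, background, filters, blocks, the methods' ANOVA and t-test, and each array left out. Extracts came from independent animals, and 4 or 5 arrays for each group limit the precision.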

Additional observations from a re-analysis of the deposited data

Results flagged for a closer look

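Of 96 groups of 1 leading strand at 1 age and sex, 9 had an animal far from the others by Dixon's test, where chance gives about 1 in 20. In 21-week male replicate 2, miR-19a-3p was at 0.398 (others 0.0902 to 0.115) and miR-19b-3p at 3.05 (others 1.14 to 1.37). In 21-week female replicate 4 the same strands were low, at 0.0733 (others 0.105 to 0.112) and 1.10 (others 1.61 to 1.64). MiR-19a-3p was also low in 2-week female replicate 3, at 0.109 (others 0.196 to 0.207). MiR-19b-3p stood apart in 8-week male replicate 4 at 1.76 (others 1.61 to 1.62) and in 15-week male replicate 3 at 2.04 (others 1.71 to 1.78). MiR-20a-5p was at 2.61 in 78-week male replicate 6 (others 1.96 to 2.04), and miR-92a-3p at 2.67 in 6-week female replicate 5 (others 3.49 to 3.88). Of the 9, 7 were strands of the miR-19 family, which share a seed and differ by 1 base. Their deviations correlated at r = 0.79, and both were flagged on 21-week male replicate 2 and on 21-week female replicate 4. The flags are therefore not independent, and their number cannot be set strictly against 1 in 20.

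MiR-20a-3p differed between the sexes in its course over age (interaction, adjusted p = 4.81e-06 from limma) and in its change from 2 to 5 weeks (-0.36 on the log2 scale, males minus females). All values at 5 weeks are at the floor, so both values rest on the 2-week animals, and with the floor set before scaling neither passed.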

How the results depend on the processing

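Normexp with an offset of 50 moved most results. It left an age effect for 0 strands in females and for 2 in males, changes for 0 and 0 from 2 to 5 weeks, 0 and 2 from 2 to 8 weeks, 0 from 21 to 104 weeks in males, 0 interactions, 0 differences of the change between the sexes and 1 unequal pair of strands, and it turned miR-92a-3p in females to 0.0546 (adjusted p = 0.776 from limma). The offset exceeds the median intensity of miR-18a-5p, 10.2, but not that of miR-20a-5p, 318, whose change in females went to -0.26. It also shifted the median change of all miRNAs from 2 to 5 weeks to -0.16 in females and 0.07 in males, and the floor before scaling shifted it to 0.07 and 0.10. When the 75th percentile was taken over all miRNAs, 2 strands had an age effect in females, 0 changed from 2 to 5 weeks in females and 0 from 21 to 104 weeks in males. With the percentile over miRNAs detected on all arrays these last counts were 5 and 0, and with quantile normalization 1 strand changed from 2 to 5 weeks in females and 4 in males. The rise of miR-18a-5p in old males also gave 0 with outlier spots left out and with the methods' test. Without the fold threshold 6 strands changed from 2 to 5 weeks in males, 2 changed between later ages and 4 differed between the sexes, and with no filter 1 and 1 of the last 2 kinds were called. The oldest 4 ages alone gave 0 age effects in either sex and 0 interactions.

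Interactions were 0 with the floor before scaling, with either other percentile and with outlier spots left out, and 2 with quantile normalization, with no filter and with slide as a fixed or random block. The sex difference of the change from 2 to 5 weeks was called for 0 strands with the floor before scaling, either other percentile, quantile normalization, outlier spots left out or the methods' test, and for 2 with the fixed slide block. For all of these, apart from what normexp and the thresholds do by construction, the cause was not tested.

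With 1 array left out, 1 to 5 strands changed from 2 to 5 weeks in females (1 without 2-week replicate 4, 5 without 2-week replicate 3), 0 to 1 from 21 to 104 weeks in males, and 1 to 2 had an interaction or a change that differed between the sexes. All other counts stayed within 1.5 times. Of the log2 changes of single strands from 2 to 5 weeks, 872 values with 1 array left out kept direction and side of the threshold and 16 moved across it. Most of the 872 left out an array of another age or sex, which cannot alter the size of the change. They therefore say little about its stability. Leaving out both 21-week male replicate 2 and 78-week male replicate 6, chosen after the data were seen, kept every count within 1.5 times. With slide removed as well as group, also chosen after the data were seen, 3 of the 15 correlations between strands no longer passed, all with miR-17-5p, and that of miR-17-5p and miR-92a-3p turned to 0.128. Replicate numbers do not pair the animals: deviations of equal numbers in both sexes correlated at -0.03 on average over 28 pairs, against 0.17 for 238 pairs on a shared slide. With the replicate block 4 strands changed from 2 to 5 weeks in females and 2 in males, and miR-18a-5p by -1.36 and -1.42.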
